A study of Mus musculus with 4 samples.

Results

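The matrix genes followed here are 10 whose products build the non-collagenous part of cartilage matrix, measured in 4 RNA-seq libraries of mouse joint tissue. They are the matrilins Matn1, Matn2, Matn3 and Matn4, aggrecan (Acan), the cartilage link protein (Hapln1), cartilage oligomeric matrix protein (Comp), chondroadherin (Chad), the C-type lectin Clec3a and the small membrane proteoglycan Snorc. The 10 genes were taken by name and not by a cut on their values, though with earlier results of these data known. They come from 50686 gene identifiers counted in the hip and 54838 in the knee, and each of the 10 was listed in every library. The study used these libraries to ask how loss of Cbfβ, the partner subunit that stabilises Runx transcription factors on DNA, changes gene expression in articular cartilage. The hip control came from Cbfβf/f mice labelled without treatment and without Cre, and its counterpart from Cbfβf/f;Col2α1-CreERT mice that received tamoxifen (TMX) at 2 weeks of age. Both knee libraries came from Cbfβf/f;Aggrecan-CreERT mice, one given oil and one TMX, at 8 weeks by the methods, where another passage of the study gives 6 for TMX. By their labels all 4 groups thus carry the floxed Cbfb alleles, where another passage of the study calls the hip control mice wild-type. The mice were males, and ages were 6 weeks for the hip, where another passage gives an older age, and 12 weeks for the knee. The study describes the knee samples as holding bone as well as articular cartilage, and the hip samples as articular cartilage alone. Cre activity follows the Col2a1 promoter in the hip and the Acan promoter in the knee. Cbfb is thus lost at most in cells that used these promoters around the TMX injection and in cells derived from them. Acan, a member of the group, also drives the Cre of the knee line.

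Cartilage owes its stiffness under load to aggrecan, a core protein decorated with chondroitin sulphate chains that hold water inside a collagen network. Link protein locks aggrecan onto hyaluronan strands, and matrilins and COMP are multi-subunit adaptors that bridge collagen fibrils, aggrecan and other matrix proteins. Chondroadherin, a leucine-rich repeat protein, binds collagen and integrins of chondrocytes. Matn1 and Matn3 are typical of cartilage, while Matn2 and Matn4 are also made in other connective tissues, and COMP is abundant in tendon as well as cartilage.

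With 1 library per condition there is no replicate error, so every ratio below compares 2 libraries and carries no p-value. The libraries held 34264456 to 38473120 counts on genes. A log2 ratio is the count in the library labelled Cbfb-deficient over that in its control after TMM scaling within the pair, with 0.5 added, and the 95% interval given with it (Clopper-Pearson) holds only the error of counting. The words rose and fell are kept for genes with 10 or more counts in the pair whose log2 ratio reached 1 or -1 with an interval clear of 0. By that rule 36.5% of 19856 genes were called in the hip and 15.8% of 21131 in the knee, and the median log2 ratio over all these genes was 0.01 and 0.02. Cbfb itself had 2548 counts in the hip control and 2946 in the hip library labelled Cbfb-deficient (log2 ratio 0.41, 0.33 to 0.48), and 3796 and 4572 in the knee (-0.07, -0.13 to -0.01). Gene counts do not show whether the floxed exon was removed.

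The label of articular cartilage was checked against 12 chondrocyte genes outside the group. In the knee they summed to 5297 CPM (counts scaled to library size) in the control and 2207 in the Cbfb-deficient library, none of them at 0, with Col2a1 alone at 2550 and 869. In the hip they summed to 125 and 92.2 CPM, with Col2a1 at 9.20 and 6.59, and Mia, also a chondrocyte gene, at 0 counts in the Cbfb-deficient library. The 16 skeletal muscle genes reached 182337 and 186640 CPM in the hip, against 13863 and 29368 in the knee. Chondrocyte transcripts were therefore scarce in the hip libraries, although the study describes the hip samples as articular cartilage alone. The hip values of the group rest on few counts for most genes. In bulk RNA, fewer cells of a type and less RNA per cell cannot be told apart.

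Together the 10 genes took 0.151% of the counts of the knee control (51689 counts) and 0.177% of the knee Cbfb-deficient library (67497 counts). In the hip they took 0.0211% (8126 counts) and 0.00725% (2508 counts). With TMM scaling the log2 ratio of the summed counts was -1.50 in the hip and 0.05 in the knee. Comp and Chad held most of the counts in each library, with 22150 and 13390 in the knee control and 4715 and 2566 in the hip control. The summed ratios thus mainly follow these genes and not the whole group. The hip sum was lower under each of the 5 other scalings (-1.84 to -0.83), while the knee sum turned to -0.07 by upper quartile and otherwise ranged from 0.04 to 2.39.

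**Figure D1:**
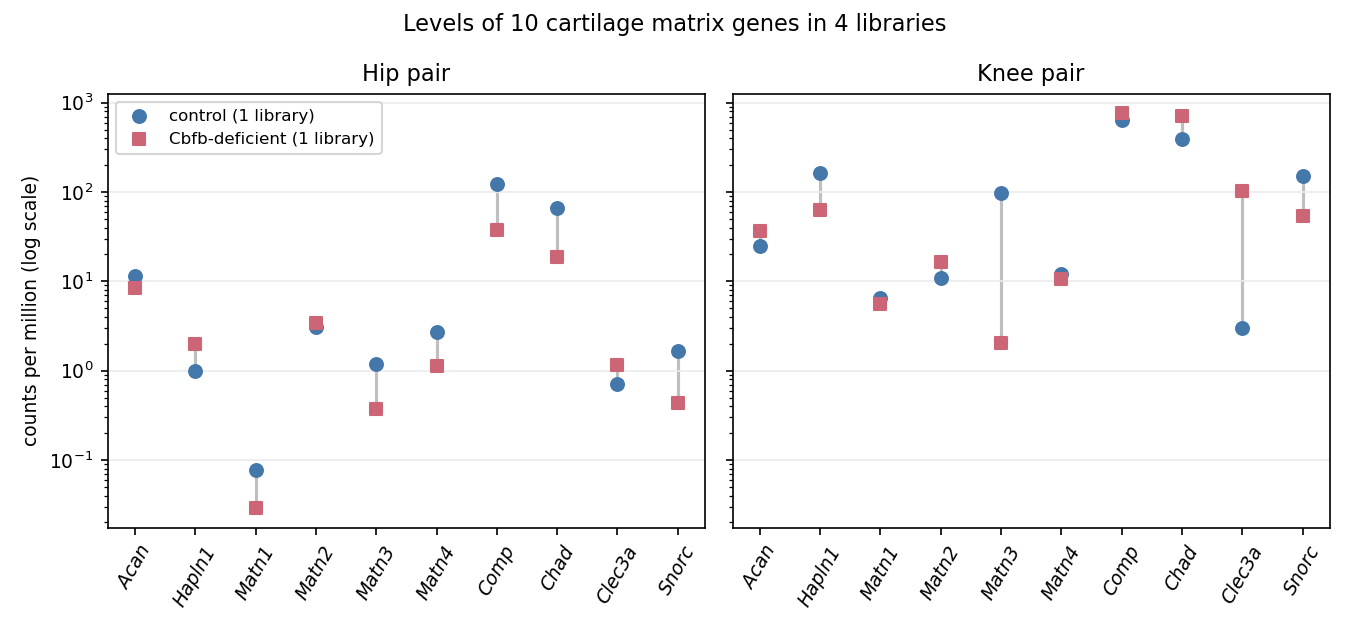
CPM (log axis) of the 10 genes in the hip pair (left) and the knee pair (right), circles for the control library and squares for the library labelled Cbfb-deficient, 1 library each. In the knee, Matn3 dropped from 98.8 to 2.04 CPM and Clec3a climbed from 2.98 to 104, while Matn1 in the hip stood on 3 and 1 counts.

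Levels can be compared between genes only per length, so CPM was divided by the union exon length in kb. In the knee control, Comp (217 CPM per kb) and Chad (210) headed the order with counting intervals that overlapped, followed by Snorc (164), Matn3 (27.4), Hapln1 (23.0), Clec3a (5.04), Acan (3.24), Matn1 (2.19), Matn4 (1.72) and Matn2 (0.610). Apart from Comp and Chad, each neighbour in that order differed beyond its counting interval. In the knee Cbfb-deficient library the order was Chad (384), Comp (255), Clec3a (175), Snorc (57.8), Hapln1 (8.80), Acan (4.69), Matn1 (1.90), Matn4 (1.5), Matn2 (0.932) and Matn3 (0.566), each apart from the next. Matn3 had gone from rank 4 to rank 10, and Clec3a from 6 to 3. Measured per kb of the longest transcript instead, 4 genes changed rank in the knee control, among them Snorc, which then stood above Chad, and 2 in the Cbfb-deficient library.

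In both hip libraries Comp and Chad were far above the other members per length. Comp stood at 41.1 CPM per kb in the control and 12.5 in the Cbfb-deficient library, and Chad at 35.9 and 9.95. The next gene was Snorc at 1.80 in the control and Clec3a at 1.96 in the Cbfb-deficient library. Snorc, Acan and Clec3a had neighbouring intervals that overlapped in the hip control, as did Matn4 with Matn3 and Matn2 with Hapln1.

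**Figure D2:**
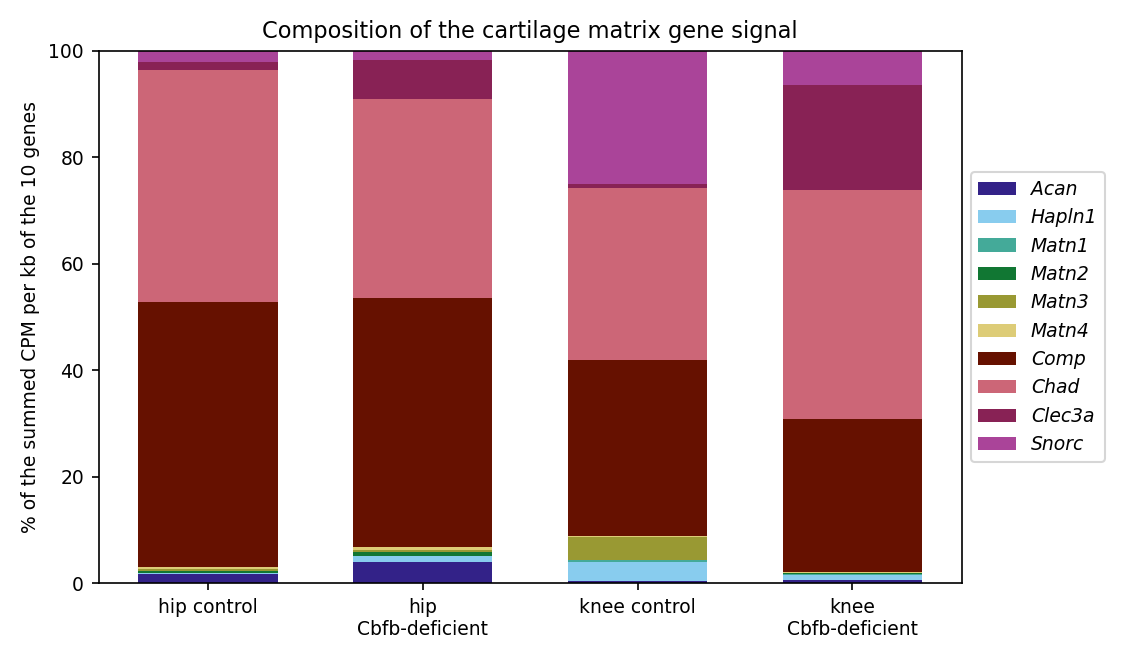
Share of each gene in the summed CPM per kb of the 10 genes (vertical axis, percent), 1 bar per library. Comp and Chad made up 49.8% and 43.5% of the hip control bar, while in the knee Snorc went from 25% to 6.49% and Clec3a from 0.770% to 19.7%.

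The knee pair is taken up first because its counts are deep. Of the 10 genes, 3 fell and 1 rose, against a background of 6.81% of genes that fell and 9.00% that rose. The median log2 ratio of the 10 was -0.16, against 0.02 over all genes. The members that fell were Matn3, Hapln1 and Snorc, the one that rose was Clec3a, and Acan, Matn2, Comp and Chad were higher without being called, while Matn1 and Matn4 were lower without being called. By the interval alone 5 of the 10 were higher and 5 lower, where 31.9% and 29.7% of all knee genes were so (61.6% in either direction).

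Matn3, the matrilin most restricted to cartilage together with Matn1, lies on chromosome 12 of GRCm39 from 8997929 to 9022028 (ENSMUSG00000020583). It had 3384 counts in the knee control and 78 in the knee Cbfb-deficient library. Its log2 ratio was -5.77 (-6.12 to -5.45), a 54.6-fold fall. Among the 4074 knee genes with at least as many counts over the pair, 0 had a lower ratio, a rank stated as a description of these libraries. In the hip it had 46 and 13 counts, which gave a log2 ratio of -1.59 (-2.64 to -0.71). Matn3 was thus lower in the Cbfb-deficient library of both joints.

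The 250 bases before the RefSeq start are shown for Matn3 and Hapln1, both of which fell in the knee, and for Chad, which did not, because Cbfβ acts through Runx factors that recognise short DNA letters. Bases in capitals are copies of TGTGGT or TGCGGT, the core letters bound by Runx proteins, searched on both strands. The windows are chr12:8947679-8947928 (Matn3), chr13:89540386-89540635 (Hapln1) and chr11:94564797-94565046 (Chad), all on the plus strand of GRCm38.p6, the build of the RefSeq table.
Matn3: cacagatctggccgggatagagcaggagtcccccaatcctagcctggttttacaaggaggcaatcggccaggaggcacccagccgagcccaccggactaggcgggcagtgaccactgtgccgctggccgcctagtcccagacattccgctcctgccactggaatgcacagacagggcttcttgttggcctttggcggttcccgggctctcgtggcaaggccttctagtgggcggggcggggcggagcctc
Hapln1: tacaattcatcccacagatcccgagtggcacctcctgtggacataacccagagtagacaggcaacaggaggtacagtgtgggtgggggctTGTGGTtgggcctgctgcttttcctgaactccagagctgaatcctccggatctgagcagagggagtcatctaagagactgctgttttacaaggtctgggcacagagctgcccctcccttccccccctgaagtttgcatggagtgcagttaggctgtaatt
Chad: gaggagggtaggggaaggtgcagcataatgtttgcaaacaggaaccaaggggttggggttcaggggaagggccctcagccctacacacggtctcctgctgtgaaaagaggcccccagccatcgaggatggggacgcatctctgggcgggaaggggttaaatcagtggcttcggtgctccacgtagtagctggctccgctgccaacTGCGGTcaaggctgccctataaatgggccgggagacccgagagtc

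Of the 10 genes, 6 had an entry in the RefSeq promoter table (Matn4 had 2), and Matn2, Comp, Clec3a and Snorc had none. Hapln1 held TGTGGT 160 to 155 bases before the start, and Matn1 held it at 134 to 129. Chad held TGCGGT at 45 to 40 bases and TATAAA, the TATA box letters, at 28 to 23. Matn3, Matn4 and Acan held neither Runx core in this window. Of 32851 mouse promoter windows, 14.0% held TGTGGT, 5.10% TGCGGT and 7.59% TATAAA on the forward strand. The SOX letters ACAAAG and ACAATG, searched on both strands and found in 16.5% and 10.7% of all windows, were in none of the 7 windows of these genes. These matches and missing matches concern the letters of these windows alone and are no evidence on binding.

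Hapln1, the link protein that fixes aggrecan to hyaluronan (chromosome 13, 89686581 to 89759950), had 5614 counts in the knee control and 2398 in the knee Cbfb-deficient library. Its log2 ratio was -1.57 (-1.64 to -1.50), so it fell. Scaling to fibril collagens, which moved all knee genes by 2.34, put it at 0.77. Acan, its binding partner (chromosome 7, 78702964 to 78764847), had 858 and 1387 counts, a log2 ratio of 0.35 (0.23 to 0.48) that was higher without being called. With the trend of ratios over transcript length and GC content removed, the knee ratio of Acan was 0.05 (-0.07 to 0.18), within counting error. The genes of the aggrecan aggregate thus separated in the knee. The log2 odds ratio of Acan over Hapln1, which needs no scaling, was 1.92 (1.78 to 2.06).

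Snorc, a transmembrane chondroitin sulphate proteoglycan of chondrocytes (chromosome 1, 87397772 to 87403204), fell in the knee from 5182 to 2041 counts. The log2 ratio was -1.68 (-1.76 to -1.61), close to that of Hapln1, and the same scaling put it at 0.66. The log2 odds ratio of Hapln1 over Snorc was 0.12 (0.02 to 0.22), the smallest separation among the members that fell. Against Col2a1, the main collagen of cartilage, Snorc had a log2 odds ratio of 0.05 (-0.02 to 0.13) and Hapln1 of 0.17 (0.10 to 0.24). For Matn3 that log2 odds ratio was -4.03 (-4.36 to -3.71), so it was lower still than Col2a1.

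Clec3a, a secreted C-type lectin of cartilage (chromosome 8, 115144826 to 115152586), had 102 counts in the knee control and 3961 in the knee Cbfb-deficient library. It rose by 4.93 on the log2 scale (4.66 to 5.24), or 30.5-fold. None of the 3489 knee genes with at least as many counts had a higher ratio (0 genes). The rise of Clec3a and the fall of Matn3 put their log2 odds ratio, Matn3 over Clec3a, at -10.70 (-11.13 to -10.27). In the hip Clec3a had 27 and 40 counts, a log2 ratio of 0.76 (0.02 to 1.53) that was not called, and the call depended on scaling. It was within counting error by DESeq2 size factors (0.69, -0.04 to 1.46), library size (0.71, -0.02 to 1.48) and upper quartile (0.41, -0.32 to 1.18), and called at 1.05 without the trend over length and GC content and at 1.42 when scaled to fibril collagens.

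Comp, the pentameric thrombospondin of cartilage and tendon (chromosome 8, 70826192 to 70834716), was the most abundant member in 3 of the 4 libraries per length and had the narrowest knee interval. Its knee counts were 22150 and 29134, a log2 ratio of 0.06 (0.03 to 0.08), and upper quartile scaling turned it to -0.06. Chad (chromosome 11, 94455696 to 94459953) had 13390 counts in the knee control and 27245 in the Cbfb-deficient library. Its log2 ratio of 0.69 (0.66 to 0.72) was a 1.61-fold difference, below the size needed for a call, and it was called from a 1.5-fold ratio. Under fibril collagen scaling, with its shift of all genes, Comp stood at 2.40 and Chad at 3.03, both called. Relative to Col2a1 the log2 odds ratios were 1.79 (1.76 to 1.82) for Comp, 2.42 (2.39 to 2.46) for Chad and 2.09 (1.96 to 2.21) for Acan, so all 3 moved apart from the main cartilage collagen.

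None of the other matrilins was called in the knee, but the shift of all genes under fibril collagen scaling put Matn1 at 1.95, Matn2 at 2.77 and Matn4 at 1.96, each then called. Matn1 (chromosome 4, 130670216 to 130682787) had 222 and 215 counts, with a log2 ratio of -0.39 (-0.66 to -0.11). Matn4 (chromosome 2, 164230090 to 164247080) had 416 and 405 counts and a log2 ratio of -0.38 (-0.58 to -0.18). Both were lower by about the same factor, and their log2 odds ratio was -0.01 (-0.34 to 0.33). Matn2 (chromosome 15, 34306614 to 34437573) was higher, with 371 and 633 counts and a log2 ratio of 0.43 (0.24 to 0.62). Matn4 shares 280 exon bases on its own strand with Slpi, a protease inhibitor gene that had 5879 and 5681 knee counts, and 640 with Rbpjl on the opposite strand, so the Matn4 counts are uncertain. The strand used in counting is not given, so the same holds for exons shared with genes of the opposite strand. Clec3a shares 430 of its 591 exon bases with Gm30330, Comp 144 of 2983 with Gm51533, both not listed in the count tables, and Acan 378 of 7736 with Gm26633, which had 5 and 10 knee counts. Matn3 was separated from Matn1 by 5.38 on the log2 scale (Matn1 over Matn3, 4.96 to 5.81).

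**Figure D3:**
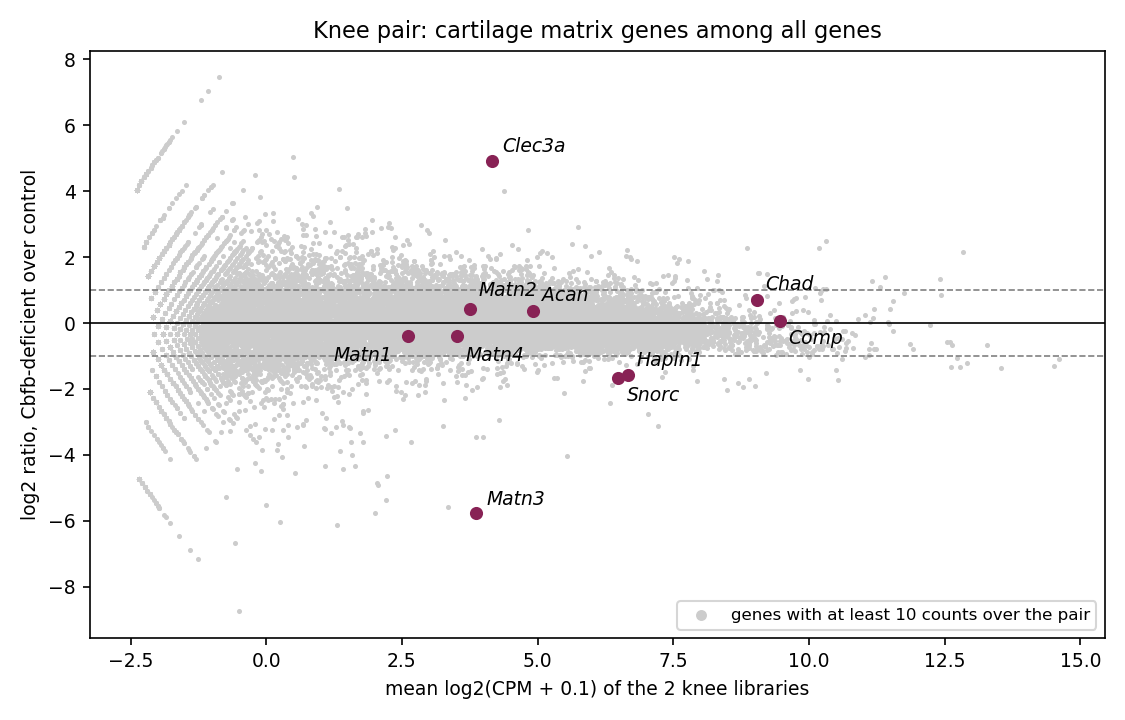
Log2 ratio of the knee pair (vertical axis) against the mean log2(CPM + 0.1) of both knee libraries (horizontal axis), with grey points for the 21131 genes with at least 10 counts and labelled points for the 10 genes. Matn3 (-5.77) and Clec3a (4.93) lie at the lower and upper edge of genes of their level, Hapln1 and Snorc lie together below -1, and the other 6 lie between the dashed lines at 1 and -1.

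Several marker lists moved in the knee pair alongside these genes. Of the 12 chondrocyte genes, 11 fell and 0 rose, with a median log2 ratio of -1.81, and the exception was Cytl1, a secreted chondrocyte protein, at 0.76. Of 8 genes of hypertrophic chondrocytes, 6 fell and 0 rose, and their sum went from 3954 to 1916 CPM. Of 8 superficial zone genes, 4 rose and 0 fell, and the sum went from 708 to 1935 CPM, with Prg4, which encodes lubricin, at 10157 and 36604 counts. None of these genes was at 0 in either knee library. Skeletal muscle genes rose in 10 of 16 cases (13863 to 29368 CPM), adipocyte genes in 4 of 8 (679 to 1198 CPM), and osteoclast genes fell in 5 of 8 (3440 to 1912 CPM). Of 10 osteoblast and osteocyte genes, 5 fell and 1 rose (Sost, 1.61), with a median of -0.90 and a sum of 11864 and 6846 CPM. Of 8 erythroid genes, 4 fell and 0 rose, all 4 globins, with a median of -0.82 and a sum of 99716 and 49299 CPM. The part of these shifts in the values of the 10 genes was not tested.

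In the hip pair 9 of the 10 genes passed 10 counts, and 5 of them fell and 1 rose, against 16.3% and 20.2% of all genes. The median log2 ratio over the 9 was -1.21, against 0.01 over all genes. Those that fell were Matn3, Matn4, Comp, Chad and Snorc, the one that rose was Hapln1, and Acan, Matn2 and Clec3a were not called. By the interval alone 2 of the 9 were higher and 6 lower, where 37.3% and 33.7% of all hip genes were so (71.0% in either direction). Matn1 had 3 and 1 counts, which do not exceed the floor of 3 counts, and gets no ratio.

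The falls of Comp and Chad rested on the deepest hip counts. Comp had 4715 counts in the control and 1286 in the Cbfb-deficient library (log2 ratio -1.68, -1.77 to -1.59). Without the trend over length and GC content the value was -0.97, which ends the call. Chad had 2566 and 639 counts, a log2 ratio of -1.81 (-1.94 to -1.68), and it was called as lower under every alternative tried, at -1.19 (-1.32 to -1.07) without the trend over length and GC content. The log2 odds ratio of Comp over Chad was 0.13 (-0.02 to 0.28), so these genes were not separated in the hip beyond counting error, whereas in the knee it was -0.63 (-0.67 to -0.59).

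Genes of other connective tissue cells were read beside these falls. Of 8 tendon and ligament genes, of which several also occur in cartilage, 4 fell, 1 rose (Egr1, 1.24) and 3 were not called (Mkx at 0.99, Scx at -0.41 and Tnxb at -0.40). They summed to 630 CPM in the control and 267 in the Cbfb-deficient library, with none at 0. Tnmd, a marker of tendon cells, had 349 and 64 counts, and Thbs4, a thrombospondin related to Comp, had 5733 and 1708. Of 8 synovial fibroblast genes, 4 fell and 1 rose (median -1.38, 250 to 94.9 CPM), and of 10 osteoblast and osteocyte genes 4 fell and 1 rose (median -0.53, 867 to 203 CPM), with Col1a1, the main collagen of bone and tendon, at -2.23. None of the genes of these lists was at 0. Of the 16 skeletal muscle genes, 3 rose and 3 fell in the hip (median -0.01). Those that rose were Ttn (3.0), Neb (2.71) and Myh4 (1.27), with union exon lengths of 6627 bases or more, and those that fell were Mb (-1.97), Pvalb (-1.92) and Acta1 (-1.09), with lengths of 3728 bases or less. The uncalled genes of the list did not all follow this order of length, with Ckm (9869 bases) at -0.93 and Tnnc2 (897 bases) at 0.51. The other cell type lists differed in the hip. Of 8 adipocyte genes 3 rose and 2 fell (median 0.77, 219 to 387 CPM). Of 8 superficial zone genes 2 rose and 1 fell (median 0.17, 439 to 406 CPM). Of 8 hypertrophic genes 2 rose and 3 fell (median -0.39, 360 to 662 CPM). Of 7 osteoclast genes that passed 1 rose and 1 fell (median -0.57). Of 8 erythroid genes 4 fell and 0 rose (median -0.96, 5884 to 2219 CPM). The part of all these lists in the falls of Comp and Chad was not tested.

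The remaining hip members had few counts. Snorc had 64 and 15 counts, with a log2 ratio of -1.86 (-2.81 to -1.07), or -1.23 (-2.18 to -0.43) without the trend over length and GC content. Matn4 had 104 and 39 (-1.21, -1.79 to -0.67). Both fell, and Acan was lower without a call at 443 and 288 counts (-0.42, -0.64 to -0.21). Matn2 had 120 and 119 counts, a log2 ratio of 0.19 (-0.19 to 0.56) within counting error. Hapln1 rose from 38 to 68 counts (1.03, 0.44 to 1.65), but 3 other scalings gave 0.68 to 0.99 and removal of the length and GC trend gave -0.0045 (-0.59 to 0.62), each of which ends the call.

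**Figure D4:**
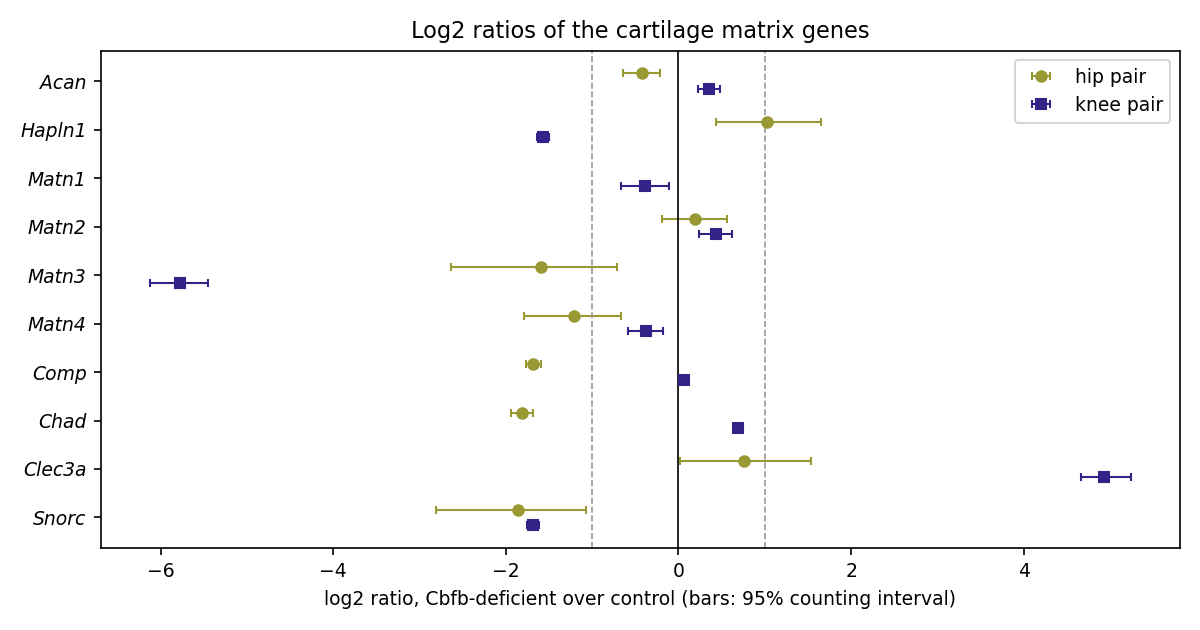
Log2 ratio of the library labelled Cbfb-deficient over its control (horizontal axis) for each gene, circles for the hip pair and squares for the knee pair, with bars for the 95% counting interval and dashed lines at 1 and -1. Matn1 has no hip point, Hapln1 lies at 1.03 in the hip and -1.57 in the knee, and Comp and Chad lie at -1.68 and -1.81 in the hip and above 0 in the knee, where upper quartile scaling puts Comp at -0.06.

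Set side by side, Matn3 and Snorc fell in both joints, at -1.59 and -5.77 for Matn3 and -1.86 and -1.68 for Snorc, hip given before knee. The Matn3 hip value was not called under fibril collagen scaling (-0.92), and the Snorc knee value turned to 0.66 there. Clec3a had 0.76 and 4.93, the hip value being within counting error under 3 of the scalings. Acan, Hapln1, Comp and Chad had ratios of opposite sign in the joints, each beyond its counting interval, 4 of the 9 members that passed in both joints. Of all 17594 genes that passed in both, 20.5% did so, and nothing particular to the members is read from the count. Under fibril collagen scaling Acan was above 0 in both joints (0.24 in the hip and 2.69 in the knee), as was Hapln1 (1.70 and 0.77). The joints differ in Cre line, age, kind of control and gene annotation, and these cannot be told apart from the joint.

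Of the 45 pairs of members, 43 in the knee and 25 in the hip, where these genes had fewer counts, had an odds ratio beyond counting error. Pairs of other genes were not computed, so these counts describe the members alone. The knee pairs that were not separated were Matn1 with Matn4 and Matn2 with Acan (log2 odds ratio of Matn2 over Acan 0.08, -0.14 to 0.30).

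Genes that work with these proteins were read from 7 lists, each described by its counts and its median. Of 11 genes for collagens of the cartilage fibril and its surroundings, 8 fell and 0 rose in the knee, with a median log2 ratio of -1.42. Col2a1 had 87367 and 33204 counts (-1.74), Col11a2, a minor chain of the same fibril, 32214 and 10822 (-1.91), and Col10a1 of hypertrophic cartilage 12199 and 5770 (-1.42). Col9a1, of the collagen that decorates the fibril surface and which matrilin-3 binds, fell from 6059 to 466 counts (-4.04), the lowest ratio of that list. Col6a2, of the pericellular microfibrils, had 4826 and 7778 (0.35). In the hip 4 of the 11 collagens fell and 2 rose (median -0.90), and Col6a2 fell from 4297 to 846 counts.

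Among lecticans, other link proteins and hyaluronan genes, 8 of 10 passed 10 counts in the knee, of which 1 rose and 1 fell (median 0.12). Cd44, a hyaluronan receptor, had 8260 and 7356 knee counts (-0.51), and versican (Vcan), a relative of aggrecan, 384 and 766 (0.66). Has1, a hyaluronan synthase, had 170 and 324 (0.59), and Hapln3, a link protein relative of Hapln1, 147 and 99 (-0.91). Of these 4 named genes, Vcan rose in the hip (136 and 256 counts, 1.11). In the hip 1 of the 10 rose and 3 fell (median -0.48).

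Of 24 genes that make and sulphate chondroitin chains, 2 rose and 0 fell in the knee, and 3 rose and 3 fell in the hip. The medians were 0.05 and 0.03, near those of all genes. Csgalnact2, which starts the chain, had 2947 and 4844 knee counts (0.38), and Fam20b, a kinase of the linker sugars, 1137 and 2501 (0.80). B3gat3, an enzyme of the linker, had 3302 and 2791 (-0.58), and Bpnt2, a phosphatase of sulphate metabolism, 2202 and 2686 (-0.05). None of these 4 was called in the knee, and in the hip Csgalnact2 (915 and 1629 counts, 1.03) and Bpnt2 (1081 and 3497, 1.89) rose.

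Of 17 matrix proteases and inhibitors, 1 rose and 3 fell in the knee (median -0.15). Mmp13, the collagenase of hypertrophic chondrocytes and osteoblasts, fell from 27871 to 10772 counts (-1.71), and Mmp14, a membrane collagenase, from 9536 to 5569 (-1.12). Mmp9 had 34001 and 34345 (-0.32) and the inhibitor Timp2 11418 and 15606 (0.11). In the hip 3 rose and 4 fell (median -0.29), with Timp2 among those that fell (7789 and 3200 counts, -1.09).

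The thrombospondins, the family of Comp, included no called gene in the knee (median 0.56 over 4 genes, 0 called). Thbs4 had 2397 and 5609 counts (0.89), Thbs2 1453 and 2881 (0.65), Thbs1 7912 and 13927 (0.48) and Thbs3 1004 and 662 (-0.94). In the hip 1 of 4 fell, which was Thbs4 (-1.55).

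Of 21 other cartilage matrix genes, 3 rose and 5 fell in the knee (median -0.13). The small leucine-rich proteoglycans Dcn (22073 and 27327 counts, -0.03), Bgn (17739 and 19907, -0.17) and Fmod (8543 and 9911, -0.13) were not called, nor was Cytl1, which had 12339 and 26383 (0.76). In the hip 7 of 19 that passed fell and 0 rose (median -0.62), with Fmod at -2.48 and Bgn at -1.50. Among 12 regulators of cartilage genes, 2 fell and 0 rose in the knee (median 0.22). Those that fell were Sox9 (1554 and 947 counts, -1.05) and Foxa2 (209 and 74, -1.83), while Runx1 (0.07), Runx2 (0.50) and Sox6 (0.09) were not called. In the hip 11 regulators passed, of which 2 rose and 3 fell (median -0.01), with Sox6 at 1.10 and Sox9 at 0.78, higher without being called.

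**Figure D5:**
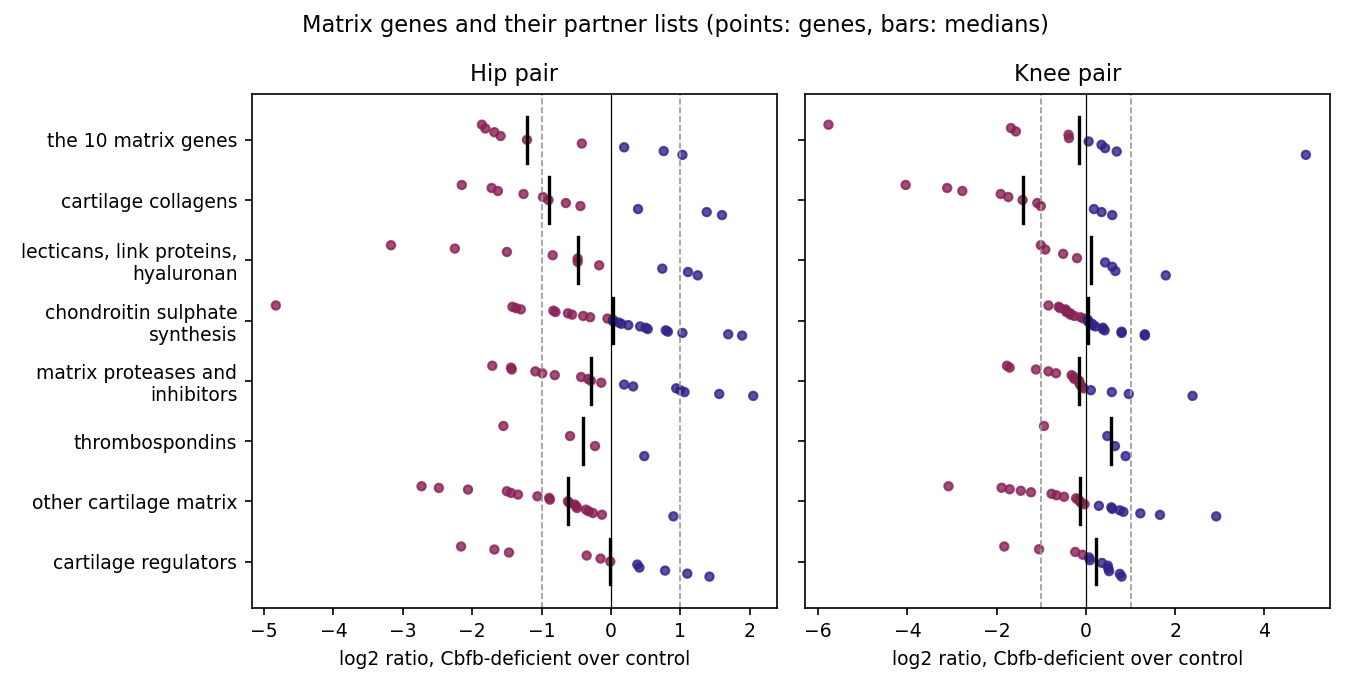
Log2 ratios (horizontal axis) of the genes with at least 10 counts in the 10 matrix genes and 7 partner lists, 1 point per gene, dark blue above 0 and wine red below, dashed lines at 1 and -1, with a black bar at each list's median, for the hip pair (left) and knee pair (right). In the knee the collagens centre at -1.42 while chondroitin sulphate genes centre at 0.05, and the 10 matrix genes spread from -5.77 to 4.93.

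The genes whose profile over the 4 libraries was most like that of a member were found by Euclidean distance of centred log2(CPM + 0.5), among 13839 genes of both annotations with at least 100 counts in a library. With 4 points from 4 libraries, this likeness is a description. For Matn3 they were Krt19, a keratin of simple epithelia (distance 0.58), Myrf (1.05) and Upk3b, a uroplakin of mesothelium and urothelium (1.12). Krt19 went from 64.0 to 1.49 CPM in the knee. For Clec3a they were Ighv1-81 (1.61), Frzb (1.62) and Tubb1 (1.81), at distances larger than those of any other member. Frzb, a secreted Wnt antagonist of articular chondrocytes, went from 18.3 to 156 CPM in the knee.

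For Hapln1 the nearest genes were Mmp13 (0.47), Spp1, which encodes osteopontin (0.56), and Ear6 (0.62), and for Snorc they were Col10a1 (0.42), Acp5, the acid phosphatase of osteoclasts (0.51), and Ly6d (0.54). Mmp13, Spp1 and Col10a1 are genes of hypertrophic cartilage and bone, and Spp1 went from 2217 to 930 CPM in the knee. For Comp they were Hoxc9 (0.17), Susd3 (0.20) and Cit (0.20), for Chad H2-Aa (0.57), Pld4 (0.59) and Kcnab2 (0.60), and for Acan H3f3a (0.06), Ifit3 (0.08) and Sec24d (0.09). For Matn1 they were Cdca4 (0.05), Mkrn1 (0.11) and the chondroitin sulphotransferase Chst11 (0.12), for Matn2 Nod2 (0.04), Phtf1 (0.07) and Pfkp (0.07), and for Matn4 Amz1 (0.06), Klhl25 (0.09) and Kcna6 (0.10). No other member was among the 3 nearest of any member.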

How the data were processed

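Poly-A RNA libraries (NEBnext Ultra kit) were made for 4 groups, 1 library each. The extraction notes in the labels name osteoblasts, the tissue labels articular cartilage. The authors deposited raw counts for each Ensembl gene, whole numbers without normalization. Reads were aligned with STAR. The submitters' processing notes give version 2.0 and mm10, the paper GRCm39. Hip tables end in HTSeq summary lines (25.8% and 24.6% of listed reads, left out). The knee counting program and the use of strand are not given in the sources used here.

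Symbols, positions and lengths came from GENCODE vM39 (GRCm39), matching 91.8% of hip and 92.6% of knee identifiers. Scaling used TMM (edgeR 4.0.16, R 4.3.3), and DESeq2 1.42.0 supplied alternative size factors. Other steps used Python 3.11.15. With 1 library per condition no test was run. A total of 3 counts served as floor (0.0780 to 0.0876 CPM). Log2 odds ratios had 0.5 added to each count and a 95% normal interval. On simulated counts, 200 of 200 changed genes were recovered among 19813 genes for the hip pair and 200 of 200 among 21037 for the knee pair, while 0.882% and 0.729% of unchanged genes were called. The simulation held counting error alone. Its changed genes had larger ratios and more counts than the call rule asks for, and the true scaling was supplied. It therefore does not show how well genes near the limits of the rule are called.

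The 10 genes, the 7 partner and 12 cell type lists and the alternatives were chosen with earlier results of these data known. Besides the 10 genes and Cbfb, named genes are the 4 of each partner list with the most CPM summed over the 4 libraries and the 3 nearest in profile to each member. Col9a1, the regulators Sox9 and Foxa2, and the overlapping genes Slpi, Rbpjl, Gm30330, Gm51533 and Gm26633 were named after their values were seen. So were the markers Prg4, Tnmd, Mia, Egr1, Mkx, Scx, Tnxb, Col1a1, Sost, Ttn, Neb, Myh4, Mb, Pvalb, Acta1, Ckm and Tnnc2. All 12 chondrocyte genes are also in a partner list. Of the remaining cell type lists, in the hip and then the knee, synovial fibroblast genes fell in 4 and 0 of 8, erythroid genes in 4 and 4 of 8, neutrophil genes in 0 and 0 of 9 and endothelial genes in 0 and 0 of 8. In the hip 1 synovial fibroblast gene and 1 neutrophil gene rose, and no other gene of these lists rose in either joint.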

Additional observations from a re-analysis of the deposited data

Results flagged for a closer look

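Of the 10 genes, 4 were singled out because their ratios had opposite signs in hip and knee, each beyond its counting interval, with 1 library per condition and the difference itself not tested. Of all 17594 genes that passed in both joints, 20.5% had such opposite signs. Acan had a log2 ratio of -0.42 in the hip and 0.35 in the knee, and the knee value was 0.05 (-0.07 to 0.18) without the trend over length and GC content. Scaled to fibril collagens, the hip value of Acan was 0.24 (0.02 to 0.46), a scaling that moved all hip genes by 0.67 and all knee genes by 2.34. Hapln1 had 1.03 in the hip, from 38 and 68 counts, and -1.57 in the knee. Its hip value was -0.0045 (-0.59 to 0.62) with that trend taken out, within counting error. Scaled to fibril collagens its knee value was 0.77, still below the median of all knee genes under that scaling (2.36). Comp had -1.68 in the hip and 0.06 in the knee, where upper quartile scaling gave -0.06. Chad had -1.81 in the hip and 0.69 in the knee.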

How the results depend on the processing

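No paired analysis was possible because each group has 1 library. The knee calls of Matn3 and Clec3a were kept under all 9 alternatives for the ratio. Scaling to 6 fibril collagen genes, which sets their median to 0, gave 8 called knee members and a knee median of 2.18, turned Hapln1 to 0.77, Snorc to 0.66, Matn1 to 1.95 and Matn4 to 1.96 in the knee and Acan to 0.24 in the hip, and gave a hip median of -0.54, at which Matn3 (-0.92) and Matn4 (-0.54) were no longer called in the hip. That scaling moved the median of all knee genes by 2.34 and of all hip genes by 0.67. The knee median was 0.02 by library size, which moved all genes by 0.18, and -0.28 by upper quartile (-0.12, and -0.35 in the hip). Calling by the interval alone gave 10 called members in the knee, where 61.6% of all genes were called. With the length and GC trend removed Hapln1 in the hip was -0.0045, and the cause was not tested. Upper quartile scaling gave a share that rose of 36.8% of called genes in the hip, against 55.4% in the main result, and 46.5% against 56.9% in the knee, where library size gave 71.3%. Requiring 10 counts in each library left 4548 called genes of 7252 in the hip and 2013 of 3342 in the knee, and in the hip 68.4% of them rose. Collagen scaling called 8991 and 19518 genes, of which 82.7% and 99.7% rose, the interval alone 14091 and 13024, and a 1.5-fold ratio 6349 in the knee. The scalings of the summed counts were chosen after seeing the data. Low counts, not shallower libraries, limit the hip values of Matn1, Matn3, Matn4, Hapln1, Clec3a and Snorc.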
